A study of Mus musculus with 21 samples.

Results

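C1q macrophages of melanoma and lung were described here, chosen by 4 conditions on single-cell counts. A cell was a member when it held a unique molecular identifier (UMI, 1 counted RNA molecule) of at least 2 of the 3 genes C1qa, C1qb and C1qc, a UMI of at least 1 of Pf4, Ms4a7 and C3ar1, UMIs of fewer than 3 of the 5 alveolar macrophage genes Chil3, Ear2, Marco, Atp6v0d2 and Plet1, and none of the fibroblast gene Col1a2 or the endothelial gene Pecam1. In the tumor microenvironment (TME) and lung libraries 2301 of 51511 cells were members, of which 1781 came from primary tumors, 144 from lung metastases and 376 from unchallenged lungs. The 13 genes of the rule chose the cells, so their values are given as a description. Of them, 9 stayed among the genes tested, and 1 was called lower in the metastasis against lung. That call is part of the counts of called genes below and is not read as a result.

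The study profiled host cells around melanoma with 10x Genomics 3' single-cell RNA sequencing. Fragments of the MT-ret mouse melanoma were transplanted under the skin of mT/mG mice. These carry the mT/mG reporter in Gt(ROSA)26Sor (allele tm4, Luo/J), in which an ACTB promoter drives membrane tdTomato in all host tissues until Cre switches it to EGFP. The model carried no Cre, so all groups of host cells share the unswitched, red reporter. Recipients of both sexes were 8 to 10 weeks old at transplantation. Lung metastases were collected after the primary tumor had been resected, and unchallenged lungs, which carried no tumor, served as controls, without an age or treatment in the labels. Living tdTomato+ cells, in part with removal of CD45+ leukocytes, were sorted, and the sources used here do not state which gate a library had. The labels name lung as the tissue of the primary tumor samples, whereas the tumors were subcutaneous and the cell annotation gives skin. The libraries labelled replicate 1-3 held cells of several mice, namely mice 1, 2 and 3 in the primary tumor and mice 2 and 3 in the metastasis, so these 2 libraries share animals. Every other library name gives 1 mouse, but some cells were deposited under the names of several mice. Those of metastasis replicate 5 stood under mice 17 and 21, and those of metastasis replicate 6 under mice 18, 21 and 22. Primary tumor replicates 5 and 6 stood under mice 17 and 21 and under mice 18 and 22. The mouse of these libraries is therefore unsure. The cells of metastasis replicate 6 were deposited under 3 library names, 1 of which names sorted melanoma cells, so what this library was sorted for is unsure. A Ptprc (CD45, leukocyte) UMI was found in 29.5% of its cells, and counts of called genes in the metastasis are also given without it.

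C1q is the recognition component of the classical complement pathway, and macrophages are a main source of it. Macrophages that carry C1q take up dying cells, present antigen on major histocompatibility complex (MHC) class II molecules and, in the lung, lie in the interstitium rather than in the alveolar space. In tumors, cells of this type are found beside macrophages that express arginase and osteopontin.

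The 2 primary tumor libraries with members held them at a high share. In replicate 1-3 there were 232 among 668 cells, or 34.7% (exact 95% binomial interval 31.1 to 38.5), and in replicate 4 there were 1549 among 3123 cells, or 49.6% (47.8 to 51.4). Primary tumor replicates 5 and 6 held 0 of 303 and 0 of 2383 cells, which allows a share of up to 0.990% and 0.126% by a limit of 3 counts, with upper ends of the exact intervals of 1.21% and 0.155%. In the metastasis the share was 10.4% of 785 cells in replicate 1-3, 1.51% of 661 cells in replicate 4, 0.348% of 5166 cells in replicate 5 and 3.28% of 1036 cells in replicate 6. Unchallenged lung held 1.81%, 0.783%, 0.483% and 1.12% in replicates 1, 4, 5 and 6. Cells with a UMI of the leukocyte gene Ptprc (CD45) made up 75.4% and 77.5% of primary tumor replicates 1-3 and 4 but 0.660% and 0.0839% of replicates 5 and 6, and 2.26% of metastasis replicate 5. The sort and the tissue cannot be told apart in these shares, so they were not compared between tissues, and intervals and limits cover counting error only.

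**Figure D1:**
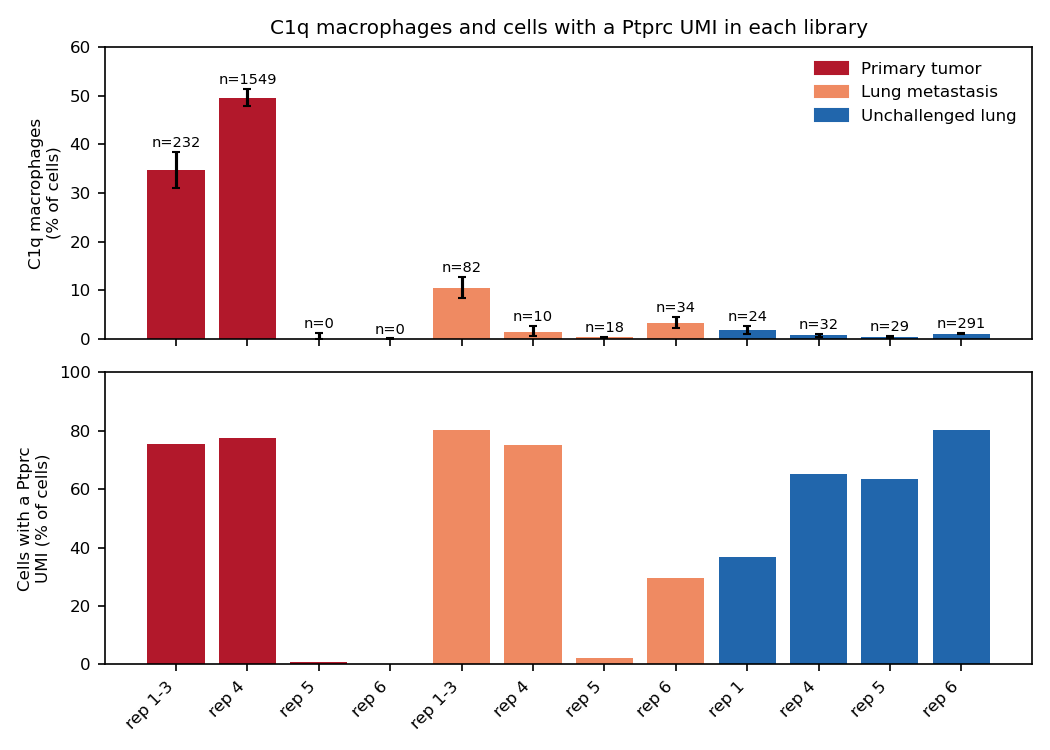
Share of cells that were C1q macrophages (upper panel, percent of the cells of a library, bars with exact 95% binomial intervals, n is the number of members) and share of cells with a Ptprc UMI (lower panel, percent) in the 12 libraries. Both shares were at or near 0 in primary tumor replicates 5 and 6, and the highest share of members, 49.6%, was in primary tumor replicate 4.

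Members carried the marker genes of macrophages that the rule had not used. All 20 genes of a macrophage identity list passed the filter on low counts, and the summed level of the list was 19677 and 20128 counts per 1e6 (CPM, UMIs of a gene among 1e6 UMIs of the members of a library) in primary tumors, 13268 to 20475 in metastases and 12995 to 24592 in lungs. The receptor of macrophage colony stimulating factor, Csf1r, stood at 568 and 539.9 CPM in primary tumor replicates 1-3 and 4, at 519.7, 419, 501 and 689 CPM in metastasis replicates 1-3, 4, 5 and 6, and at 961, 912, 738 and 511 CPM in lung replicates 1, 4, 5 and 6. All values per library follow this order. Adgre1, which encodes the F4/80 antigen, reached 223 and 239 CPM, 248, 279, 269.5 and 255 CPM and 332, 414, 423 and 223 CPM in the same order. Neither gene passed the test between any pair of tissues. A Ptprc UMI was present in 72.2% to 95.8% of the members of a library. C1qa itself, as a description, lay at 4209.9 and 3536 CPM in primary tumors, 3954, 1895, 6392 and 5117 CPM in metastases and 6295, 5139.6, 3786 and 1912 CPM in lungs.

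The edges of the rule were populated. Among members, 490 cells held exactly 2 of the C1q genes and 1811 held all 3, with medians of 2314 and 6027 UMIs a cell. Just outside, 347 cells met every other condition but held 1 C1q gene, with 321 CPM of Csf1r against 374 CPM in members with exactly 2. A further 933 cells lacked Pf4, Ms4a7 and C3ar1, 125 held 3 or more alveolar genes and 455 held a UMI of Col1a2 or Pecam1.

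Libraries differed in depth and purity. Metastasis replicate 4 held 10 members and 50120 UMIs, the smallest total, and the totals of the other 9 libraries with members ran up to 10073022 UMIs in primary tumor replicate 4. The median was 1774 UMIs a member in lung replicate 6 and 3532.5 to 7396.5 in the others. Mitochondrial transcripts took 9.79% of the UMIs of members in metastasis replicate 4, 6.08% in lung replicate 6 and 2.77% to 4.92% elsewhere. These 2 libraries stood apart, and the counts of called genes are also given without the pair. RNA of other cell types was present in the members: 54.5% of them held UMIs of at least 2 markers of 1 other cell type. In the 4 libraries of run 3, replicates 5 and 6 of the metastasis and the lung, these were 96.6% to 100% of the members, and in the other 6 libraries 20% to 61.0%. No cell barcode was shared between libraries among members. The 9 melanoma markers summed to 461 and 1055 CPM in primary tumors and 228 to 2551 CPM in metastases, against 0 to 17.0 CPM in lungs, with the melanoma enzyme gene Dct alone at 146 to 2070 CPM in metastases. The 12 lung epithelial markers summed to 1.41 and 0.496 CPM in primary tumors, 167 to 2320 CPM in metastases and 23.3 to 8919 CPM in lungs. Their part in the results that follow was not tested except by leaving out such mixed cells.

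Counts of the members were summed in each library and the 10 libraries with at least 10 members (2 primary tumor, 4 metastasis and 4 lung) were fitted together with edgeR's quasi-likelihood test over 4785 genes, with Benjamini-Hochberg adjustment and a call at an adjusted p below 0.05. Against unchallenged lung, 266 genes (5.56% of those tested) were called in primary tumor macrophages, 126 higher (2.63%) and 140 lower (2.93%). Macrophages of the metastasis differed from those of lung in 150 genes (3.13%), 85 higher (1.78%) and 65 lower (1.36%). Of these, 100 genes were called in both comparisons, 37.6% of the primary tumor calls and 66.7% of the metastasis calls, and both comparisons share the 4 lung libraries. Primary tumor against metastasis gave 0 called genes (0%), with 194 at an unadjusted p below 0.05 (4.05%) and 12 called by DESeq2. Values are log2 fold changes ± SE throughout, and p-values measure the spread between libraries, of which those of replicate 1-3 hold several mice and share 2 of them. Without metastasis replicate 4 and lung replicate 6, 208 genes were called in the primary tumor and 158 in the metastasis against lung, and 4 between the sites. Without metastasis replicate 6 the counts were 243, 69 and 1.

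**Figure D2:**
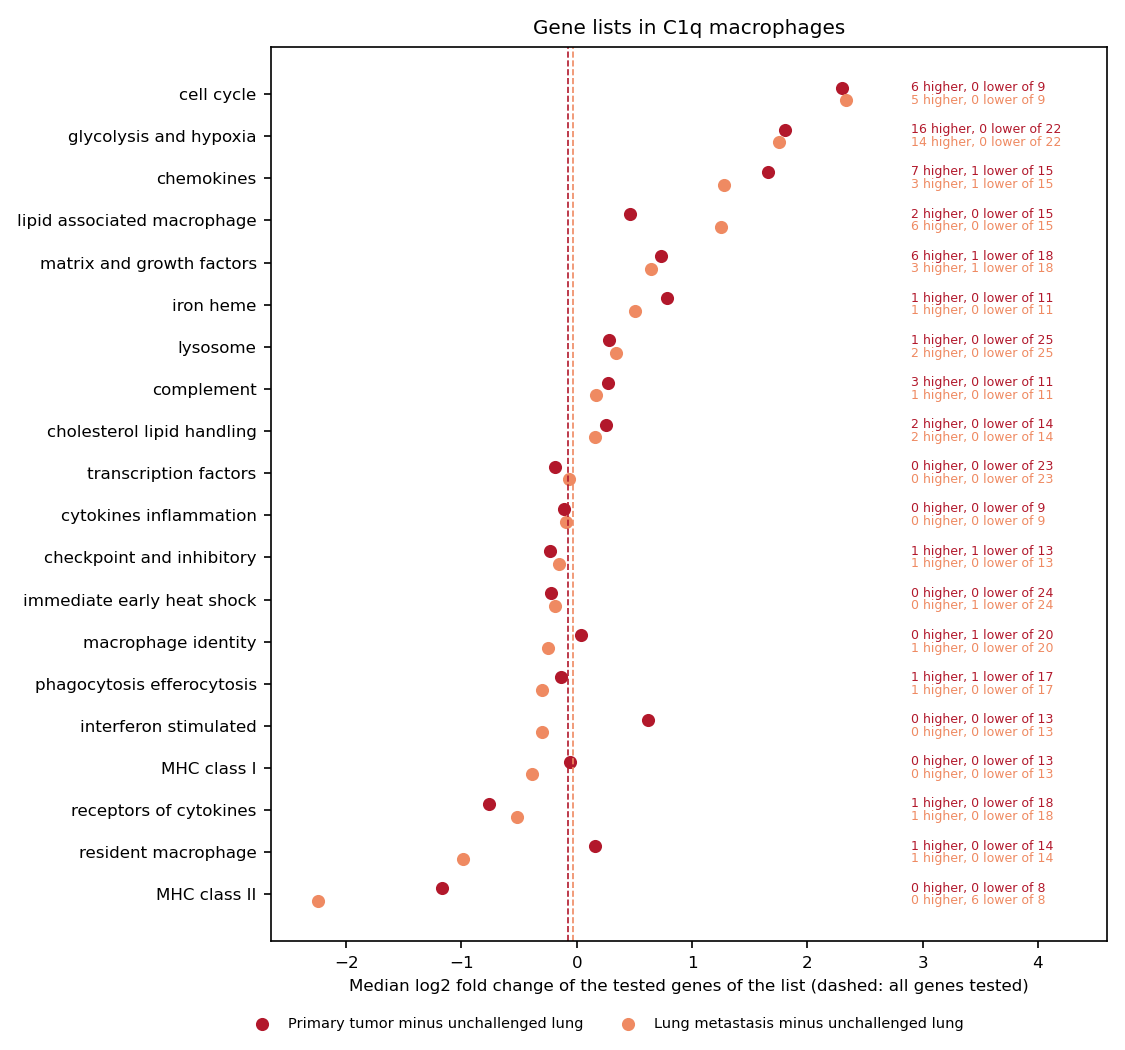
Median log2 fold change of the tested genes of each functional list (horizontal axis) in C1q macrophages of the primary tumor and the lung metastasis against unchallenged lung, with the number of genes called higher and lower at the right. Dashed lines mark the median over all 4785 genes, -0.07 and -0.03. Cell cycle and glycolysis genes lay highest and MHC class II genes lowest in both comparisons.

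Arginase was higher than in lung at both sites. Arg1 (chr10:24915221-24927484, minus strand, GRCm38), which splits arginine into ornithine and urea, stood at 448 and 248 CPM in primary tumor libraries and at 793, 119.7, 760.5 and 2028 CPM in metastasis libraries, and was at 0 in each of the 4 lung libraries. All 6 tumor-bearing libraries lay above all lung libraries, with the lowest level in metastasis replicate 4. Against the floor of 3 UMIs over the pooled lung libraries, and taking the lower of the mean level of the libraries and the level of their pooled UMIs, as for the other such bounds, the level was at least 101-fold higher in the primary tumor (adjusted p = 0.00108) and at least 341-fold higher in the metastasis (adjusted p = 0.000418). Both calls held in all 23 and all 24 alternatives that could be run, with adjusted p up to 0.0170 and 0.00251. The bounds depend on the depth of lung replicate 6, and were 45.3-fold and 154-fold without it. Leaving out metastasis replicate 6 gave 206-fold for the metastasis. Thinned to 1000 UMIs a cell, 12.3% and 6.01% of members in primary tumors and 10% to 31.3% in metastases held an Arg1 UMI, against 0 of 22, 31, 29 and 270 members in lungs. Stromal cells, chosen by endothelial or fibroblast genes and free of Ptprc and C1q UMIs, held one in 0% to 0.439% at the same depth. In primary tumor replicates 1-3 and 4 these were 35 and 9 cells, too few for a firm background share. Dropping cells with a C1q UMI can drop stromal cells that hold free macrophage RNA. Shares in these stromal cells, also those below, can therefore understate the background.

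Osteopontin, a secreted matrix protein encoded by Spp1 (chr5:104435118-104441050, plus strand), followed the same order. Its level was 562 and 846 CPM in primary tumors, 1086, 179.6, 491 and 1269 CPM in metastases and 25.5, 4.66, 0 and 14.8 CPM in lungs. No tumor-bearing library overlapped with a lung library. The log2 difference was 5.99 ± 0.72 (adjusted p = 0.000266) in the primary tumor and 6.11 ± 0.69 (adjusted p = 0.000335) in the metastasis, and the calls held in all 23 and all 24 alternatives. At 1000 UMIs a cell the share with a Spp1 UMI was 12.7% and 17.7% in primary tumor members, 20% to 41.2% in metastasis members and 0% to 1.48% in lung members. Stromal cells of the same primary tumor libraries held one in 5.71% (95% exact binomial interval 0.700% to 19.2%, 35 cells) in replicate 1-3 and 22.2% (2.81% to 60.01%, 9 cells) in replicate 4, against intervals of 8.69% to 17.8% and 15.8% to 19.7% for the members. The intervals overlap in both libraries, so at this depth the shares of primary tumor members were not told apart from the background. In the metastasis stromal cells held one in 3.23%, 0%, 8.40% and 22.3% in replicates 1-3, 4, 5 and 6, each below the share of the members of its library, with intervals that overlap in all but replicate 1-3.

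Matrix genes differed from lung in part. In a list of 30 matrix and growth factor genes, 18 were tested, of which 6 were higher and 1 lower in the primary tumor and 3 were higher and 1 lower in the metastasis. The shares over all genes were 2.63% higher and 2.93% lower in the primary tumor and 1.78% and 1.36% in the metastasis. Fibronectin, Fn1, stood at 1233 and 1005 CPM in primary tumors, 2212, 1317, 2763 and 3108 CPM in metastases and 42.5, 74.5, 429 and 455 CPM in lungs, without overlap. The differences were 2.17 ± 0.59 (adjusted p = 0.0397) and 3.20 ± 0.55 (adjusted p = 0.00706), and that of the metastasis held in all 24 alternatives while that of the primary tumor was lost in 7 of 23. Thrombospondin 1, Thbs1, lay at 301 and 113 CPM, 329, 199.5, 231 and 1349 CPM and 8.51, 9.31, 18.1 and 73.9 CPM, with differences of 2.56 ± 0.73 (adjusted p = 0.0484), lost in 9 of 23 alternatives, and 3.93 ± 0.68 (adjusted p = 0.00706). Stromal cells of the primary tumor held a Fn1 UMI in 40% (replicate 1-3, 35 cells) and 55.6% (replicate 4, 9 cells) at 1000 UMIs, above the 35.5% and 34.4% of members. The share of free stromal RNA in the levels of Fn1 and the other matrix genes was not tested at either site. Sparc, a collagen-binding protein, was also higher at both sites (3.92 ± 0.89 and 3.90 ± 0.92), the latter lost in 6 of 22 alternatives. Mmp14 and Mmp19, both metalloproteinases, and Plaur, the urokinase receptor, were called in the primary tumor alone, which does not show that the sites differ, and the calls of Mmp14 and Plaur were lost in 10 of 22 and 10 of 22 alternatives. Mmp13 went the other way. This collagenase stood at 16.9 and 4.67 CPM in primary tumors, 50.3, 20.0, 0 and 0 CPM in metastases and 298, 205, 121 and 70.6 CPM in lungs, with differences of -4.19 ± 0.76 (adjusted p = 0.00472) and -2.60 ± 0.69 (adjusted p = 0.0474), the latter lost in 9 of 23 alternatives. With the 2 libraries that stood apart left out, the list gave 6 and 3 higher and 1 and 1 lower. Without primary tumor replicate 1-3 or 4 the genes called higher in the primary tumor fell to 2 and 1, without lung replicates 1, 4 and 5 to 3, 4 and 2, and without metastasis replicate 1-3 to 4. Without metastasis replicate 6 the metastasis gave 2 higher and 0 lower.

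**Figure D3:**
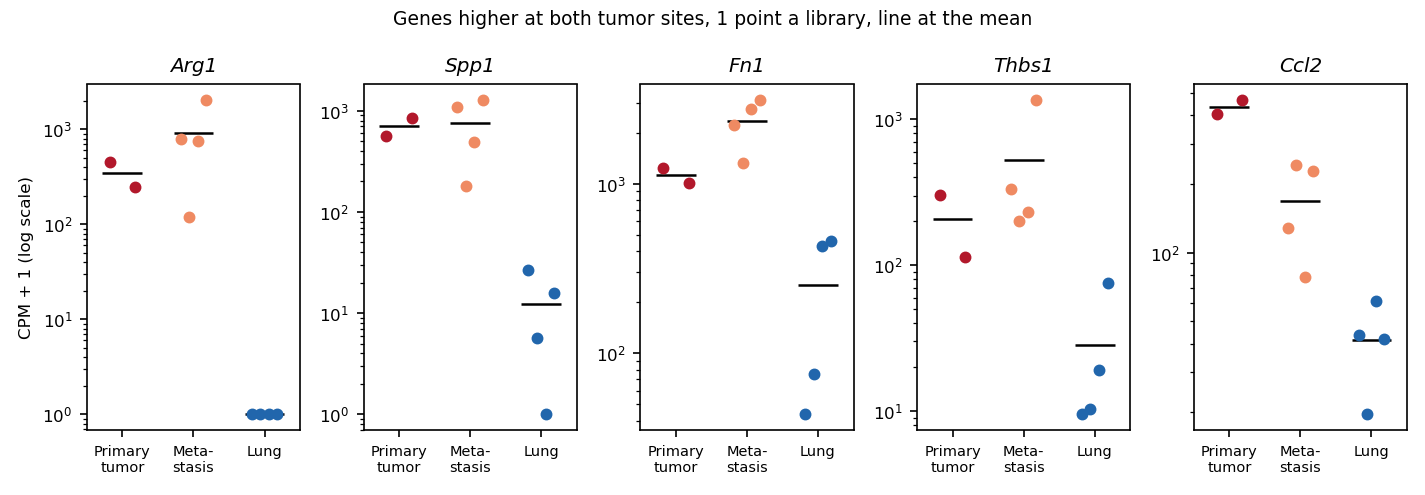
Levels of Arg1, Spp1, Fn1, Thbs1 and Ccl2 in C1q macrophages (CPM plus 1, log axis), 1 point for each of 2 primary tumor, 4 metastasis and 4 lung libraries, with a line at the mean. All points of the primary tumor and the metastasis lie above all points of the lung in the 5 genes, and Arg1 was 0 in every lung library.

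Within the tumor-bearing tissues, cells with an Arg1 UMI differed from those without one. The comparison was made in the 4 libraries with at least 10 such cells, 36 against 196 cells in primary tumor replicate 1-3, 148 against 1401 in replicate 4, 28 against 54 in metastasis replicate 1-3 and 10 against 24 in replicate 6, and it is a description with no test. Spp1 stood at 1850 against 248 CPM, 5193 against 288 CPM, 2857 against 179 CPM and 3311 against 254 CPM in cells with and without Arg1, in that order. Fn1 stood at 3162 against 763 CPM, 3070 against 740 CPM, 4864 against 854 CPM and 8896 against 233 CPM. In all 4 libraries both genes were higher in the cells with Arg1. H2-Aa was lower in them, at 1645 against 3112 CPM, 2376 against 4541 CPM, 961 against 3733 CPM and 1123 against 1144 CPM, and in the last library the values were close. Cd74 was lower in the first 3 libraries, by 0.90, 0.86 and 2.05 on the log2 scale, and higher in metastasis replicate 6, at 4505 against 3981 CPM. H2-Ab1 and H2-Eb1 were lower in all 4, by 0.63 to 2.06 and by 0.55 to 2.48. The proliferation gene Mki67 was lower as well, by 0.83 to 1.41 on the log2 scale, on few UMIs in the metastasis. There the values rested on 12 UMIs with and 42 without Arg1 in replicate 1-3, and on 3 and 12 in replicate 6. The chemokine gene Ccl8 stood at 315 against 2169 CPM and 64.6 against 777 CPM in the primary tumor, with and without Arg1. In metastasis replicate 1-3 it was at 0 with and 8.16 CPM (3 UMIs) without Arg1, and in replicate 6 at 0 in both, so no difference was detectable there at this depth. Cells with an Arg1 UMI had a median of 8368 UMIs against 4768, 8173.5 against 6367, 6190 against 6363.5 and 6511.5 against 4554, and the part of depth in these differences was not tested.

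MHC class II genes were lower in macrophages of the metastasis. The list held 15 genes, of which 8 passed the filter on low counts. Of these, 6 were called lower in the metastasis and 0 in the primary tumor, against 1.36% and 2.93% of all genes. The median log2 fold change was -2.25 and -1.17, against -0.03 and -0.07 over all genes. H2-Aa (chr17:34282744-34287823, minus strand), the alpha chain of the I-A molecule, stood at 13108, 11601, 8926 and 3583 CPM in lungs, 2794, 2255, 1482 and 1137 CPM in metastases and 2825 and 4295 CPM in primary tumors. The metastasis libraries all lay below the lung libraries, whereas primary tumor replicate 4 lay above lung replicate 6. The differences from lung were -2.35 ± 0.41 (adjusted p = 0.00706) in the metastasis and -1.40 ± 0.51 (adjusted p = 0.122) in the primary tumor.

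The beta chains moved alike. H2-Ab1 stood at 9587, 12528, 8158 and 2969 CPM in lungs and 2251, 1895, 1357 and 1165 CPM in metastases, a difference of -2.39 ± 0.42 (adjusted p = 0.00706), and H2-Eb1 at 12249, 11671, 7698 and 2587 CPM and 2444, 2015, 1088 and 1264 CPM, a difference of -2.41 ± 0.45 (adjusted p = 0.00804). Neither gene overlapped between the metastasis and the lung. Cd74, the invariant chain that guides class II molecules through the cell, differed by -2.30 ± 0.45 (adjusted p = 0.0110), with 1 metastasis library above the lowest lung library. Ciita, the transactivator that class II genes depend on, stood at 298, 186, 157 and 113 CPM in lungs and 86.3, 39.9, 28.9 and 14.1 CPM in metastases (-1.82 ± 0.46 (adjusted p = 0.0418)). H2-DMb1, a chain of the molecule that loads peptides, differed by -2.19 ± 0.48 (adjusted p = 0.0201), while its partner H2-DMa (-1.51 ± 0.40 (adjusted p = 0.0505)) and the costimulatory gene Cd86 (-0.60 ± 0.39 (adjusted p = 0.435)) were not called. The call of Ciita was lost in 9 of 24 alternatives, and those of Cd74 and H2-DMb1 in 3 of 24 and 5 of 24. Dendritic cells and B cells also carry class II molecules. The 8 dendritic cell markers, of which 0 passed the filter on low counts, summed to 55.9 to 224 CPM in lung members, 14.1 to 38.5 CPM in metastasis members and 14.8 and 51.9 CPM in primary tumor members, so neither site overlapped with the lung. The 7 B cell markers summed to 179 to 1033 CPM, 96.3 to 319 CPM and 107.5 and 158 CPM, and of 2 tested 1 was called lower in the metastasis (Ighm) and 2 in the primary tumor (Ighm and Igkc). Leaving out metastasis replicate 4 and lung replicate 6 left 1 B cell marker tested and 0 called at either site. The part of such markers in the class II values was not tested beyond leaving out mixed cells. That alternative covered B cell but not dendritic cell markers, and it left 1 metastasis library.

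**Figure D4:**
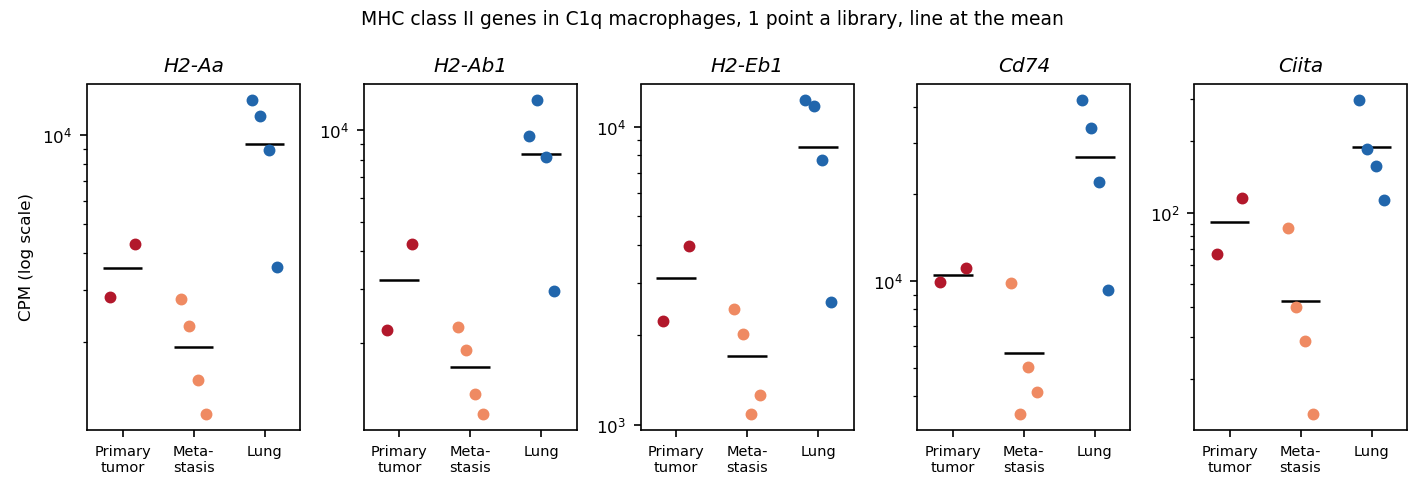
Levels of H2-Aa, H2-Ab1, H2-Eb1, Cd74 and Ciita in C1q macrophages (CPM, log axis), 1 point a library for 2 primary tumor, 4 metastasis and 4 lung libraries, with a line at the mean. The 4 metastasis points lie below the 4 lung points in each gene except Cd74, and the primary tumor points lie between or overlap with both.

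Within each run of the cell annotation, 1 or 2 libraries of a site meet 1 or 2 lung libraries. All 8 tested class II genes were lower than in lung in the primary tumor (runs 1, 2) and the metastasis (runs 1, 2 and 3). H2-Aa in the metastasis differed from lung by -2.23, -2.36 and -2.25 on the log2 scale in runs 1, 2 and 3. At 1000 UMIs a cell, a H2-Aa UMI was found in 100%, 83.9%, 86.2% and 75.6% of lung members, 53.7%, 50%, 43.8% and 38.2% of metastasis members and 53.5% and 69.4% of primary tumor members. Stromal cells without Ptprc and C1q UMIs held one at lower shares, in 19.2% to 44.6% in lung, 10.8% to 33.9% in the metastasis and 0% to 8.57% in the primary tumor. As for Arg1, these shares can understate the background. The call changed when libraries were left out. Without metastasis replicate 5 or without replicate 6 the class II genes called lower in the metastasis were 3, and with at least 20 members a library, which drops metastasis replicates 4 and 5, they were 0. Without metastasis replicate 4 and lung replicate 6 they were 7. With these 2 libraries left out, H2-Ab1, H2-Aa, H2-Eb1 and Cd74 were also called lower in the primary tumor. A list of MHC class I genes, which does not hold the nonclassical gene H2-M2, gave 0 calls of 13 tested at either site (medians -0.06 and -0.38), and H2-T23 was called lower in the metastasis without the same 2 libraries.

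Promoters of called class II genes are shown because these genes moved together and because the CCAAT box, bound by nuclear factor Y, is a known element of class II promoters. RefSeq windows (GRCm38.p6, 250 bases before to 50 after a RefSeq start, coding strand, 5' to 3') matched 3 of the 6 called genes, and CCAAT on either strand is in capitals.
H2-Aa, chr17:34287774-34288073, minus strand: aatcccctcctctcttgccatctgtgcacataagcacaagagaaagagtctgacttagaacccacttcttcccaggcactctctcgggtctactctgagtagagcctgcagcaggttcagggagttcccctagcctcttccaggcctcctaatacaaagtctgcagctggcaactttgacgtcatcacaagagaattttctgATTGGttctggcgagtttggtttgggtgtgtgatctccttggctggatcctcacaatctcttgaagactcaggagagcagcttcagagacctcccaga
H2-Eb1, chr17:34305617-34305916, plus strand: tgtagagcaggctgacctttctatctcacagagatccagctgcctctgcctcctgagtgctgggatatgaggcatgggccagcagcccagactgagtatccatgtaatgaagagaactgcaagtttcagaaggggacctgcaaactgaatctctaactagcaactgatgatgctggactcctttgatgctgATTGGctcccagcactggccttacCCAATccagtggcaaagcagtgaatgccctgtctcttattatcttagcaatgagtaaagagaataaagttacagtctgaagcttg
H2-DMb1, chr17:34152941-34153240, plus strand: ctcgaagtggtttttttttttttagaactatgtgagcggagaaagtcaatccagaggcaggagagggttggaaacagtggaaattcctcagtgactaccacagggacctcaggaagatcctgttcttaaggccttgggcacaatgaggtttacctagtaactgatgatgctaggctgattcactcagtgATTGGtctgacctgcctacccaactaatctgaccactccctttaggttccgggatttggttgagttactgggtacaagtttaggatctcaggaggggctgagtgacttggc
The letters CCAAT were found in 3 of these 3 windows and in 9 of the 10 windows of listed class II genes, against 41.1% of all genes with a window. A match describes letters and is not a site.

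Genes of glycolysis and the hypoxia response were higher at both tumor sites. Of 26 listed genes 22 were tested. Called higher were 16 in the primary tumor and 14 in the metastasis, against 2.63% and 1.78% of all genes, and 0 were called lower. All 22 had a fold change above 0 in both comparisons, with medians of 1.81 and 1.75. Ldha (chr7:46841475-46855627, plus strand), which turns pyruvate into lactate, stood at 695 and 545 CPM in primary tumors, 372, 379, 712 and 623 CPM in metastases and 153, 107, 72.6 and 108 CPM in lungs. Neither site overlapped with the lung, and the differences were 2.52 ± 0.38 (adjusted p = 0.00127) and 2.22 ± 0.35 (adjusted p = 0.00424). Mif, a cytokine gene that hypoxia induces, lay at 757 and 459 CPM, 545, 99.8, 578 and 613 CPM and 68.1, 74.5, 30.2 and 85.4 CPM (3.20 ± 0.51 (adjusted p = 0.00185) and 2.82 ± 0.47 (adjusted p = 0.00616)). The level of Mif in metastasis replicate 4 was far below that of the other 3. The glucose transporter gene Slc2a1 differed by 2.86 ± 0.55 (adjusted p = 0.00684) and 2.99 ± 0.56 (adjusted p = 0.00841), and the glycolytic genes Gapdh, Pgk1, Pgam1, Aldoa, Pkm, Tpi1 and Eno1 were called at both sites, with differences of 1.59 to 2.36. The lipid droplet gene Hilpda, a hypoxia target, was higher by 2.47 ± 0.45 and 2.46 ± 0.46, and Hif1a, the regulator of the response, by 1.29 ± 0.33 and 1.32 ± 0.32, calls lost in 6 of 23 and 12 of 24 alternatives. Vegfa did not pass the test at either site, with 2.60 ± 0.77 (adjusted p = 0.0552) in the primary tumor.

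**Figure D5:**
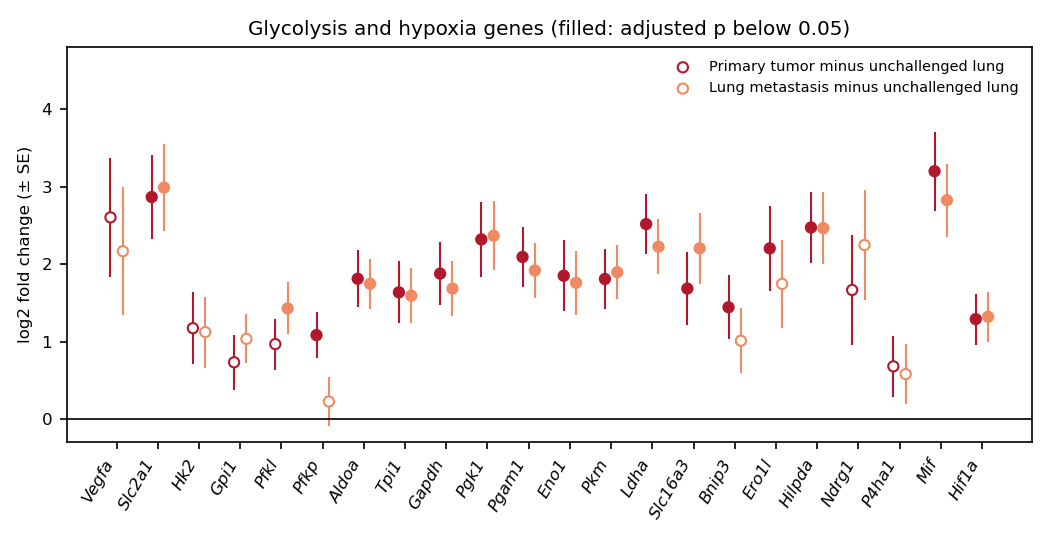
Log2 fold change with SE (vertical axis) of the 22 tested glycolysis and hypoxia genes in C1q macrophages of the primary tumor and of the metastasis against unchallenged lung. Filled points passed an adjusted p of 0.05 (16 and 14 genes), and every point lies above 0.

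Within runs, 22 and 22 of the 22 genes were above lung in the primary tumor (runs 1 and 2), and 21, 19 and 22 in the metastasis (runs 1, 2 and 3). Without metastasis replicate 4 and lung replicate 6 the calls were 15 and 14. They fell to 3 without primary tumor replicate 1-3, to 8 without replicate 4 and to 9 without lung replicate 5 in the primary tumor comparison, and to 9, 8 and 9 without metastasis replicate 5, metastasis replicate 6 and lung replicate 5 in the metastasis comparison. Melanoma markers stood higher at the same sites, at 228 to 2551 CPM in sum against 0 to 17.0 CPM in lung. After cells with markers of another type were left out, 2 primary tumor, 1 metastasis and 2 lung libraries remained, and the lone metastasis library was assumed to vary like the others. In that fit 14 genes were called higher in the primary tumor, 13 of them among the 16, with Pfkp, Tpi1 and Slc16a3 lost, and 6 in the metastasis, 4 of them among the 14. Gapdh, Ldha, Mif and Pgk1 have pseudogene copies, and how reads shared with them were counted is not stated in the sources used here.

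Promoters of 2 of these genes are shown for the core of the hypoxia response element, ACGTG, to which hypoxia-inducible factors bind. RefSeq windows of the same build and length matched 16 of the 17 genes called at either site, and ACGTG on either strand is in capitals.
Ldha, chr7:46845554-46845853, plus strand: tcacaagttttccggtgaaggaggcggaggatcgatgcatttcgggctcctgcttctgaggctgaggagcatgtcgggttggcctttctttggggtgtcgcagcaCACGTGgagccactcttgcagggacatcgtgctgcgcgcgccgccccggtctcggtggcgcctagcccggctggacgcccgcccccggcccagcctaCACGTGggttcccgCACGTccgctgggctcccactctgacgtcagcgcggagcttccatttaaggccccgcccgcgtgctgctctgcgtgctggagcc
Pgk1, chrX:106186850-106187149, plus strand: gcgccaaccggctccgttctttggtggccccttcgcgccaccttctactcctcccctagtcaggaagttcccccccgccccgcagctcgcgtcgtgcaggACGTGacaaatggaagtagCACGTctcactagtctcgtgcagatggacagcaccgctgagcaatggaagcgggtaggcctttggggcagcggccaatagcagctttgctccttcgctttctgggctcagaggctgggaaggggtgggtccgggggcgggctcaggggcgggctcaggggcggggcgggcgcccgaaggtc
The Ldha window lies at the first of 2 RefSeq starts in the table, inside the gene as annotated above and not at its outermost start. It held the letters in 3 stretches, with 5 matches over both strands since a stretch CACGTG counts on each, and that of Pgk1 in 2. The letters were present in 12 of the 16 windows (75%) and in 17 of 23 windows of listed genes, against 21.8% of all genes.

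Part of the chemokine genes were higher than in lung. Of 21 listed genes 15 were tested, with 7 higher and 1 lower in the primary tumor and 3 higher and 1 lower in the metastasis, and medians of 1.66 and 1.28. All genes tested gave 2.63% higher and 2.93% lower in the former and 1.78% and 1.36% in the latter. Above 0 lay 10 and 12 of the 15, and 0 were called between the 2 sites. Ccl2, which attracts monocytes through Ccr2, stood at 403 and 463 CPM in primary tumors, 128, 239, 77.0 and 226 CPM in metastases and 42.5, 18.6, 60.5 and 41.1 CPM in lungs. No library of either tumor site overlapped with the lung, and the differences were 3.47 ± 0.39 (adjusted p = 0.000169) and 1.99 ± 0.38 (adjusted p = 0.00920). Its neighbour Ccl7, with the same receptor, differed by 3.53 ± 0.49 (adjusted p = 0.00108) and 2.23 ± 0.51 (adjusted p = 0.0246), the latter lost in 5 of 22 alternatives. Ccl8 varied widely, at 1806 and 696 CPM in primary tumors, 5.39, 1417, 626 and 0 CPM in metastases and 25.5, 14.0, 121 and 4.93 CPM in lungs, and was called in the primary tumor (5.17 ± 1.36 (adjusted p = 0.0333)) but not in the metastasis (3.57 ± 1.29 (adjusted p = 0.139)). The Ccl8 call was lost in 8 of 23 alternatives, DESeq2, the run as a block and the fit without metastasis replicate 4 and lung replicate 6 among them. Cxcl3, which attracts neutrophils through Cxcr2, was at 72.4 and 77.1 CPM in primary tumors and at 0 in all lungs, at least 27.6-fold higher (adjusted p = 0.00999), or at least 12.4-fold without lung replicate 6. Ccl6 was called at both sites, and Ccl9 and Cxcl2 in the primary tumor. After leaving out the 2 libraries that stood apart, the list gave 6 and 4 higher and 0 and 0 lower. Without primary tumor replicate 4 it gave 4 higher in the primary tumor, and in the metastasis it gave 1 without replicate 5 and 3 without replicate 6.

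The B cell attractant gene Cxcl13 went the other way. It stood at 1974, 14.0, 42.3 and 325 CPM in lungs, 5.62 and 30.2 CPM in primary tumors and 1.80, 0, 0 and 0 CPM in metastases. Lung replicate 1 was far above the other lungs, and the primary tumor overlapped with the lung. The metastasis held 1 UMI in all, a pooled ratio to lung of 0.00273 (95% counting interval 6.89e-05 to 0.0153), with adjusted p = 0.0124, and the call was lost without metastasis replicate 1-3, without replicate 5 or with at least 20 members a library. For the primary tumor the difference was -4.89 ± 1.31 (adjusted p = 0.0359), which was lost in 9 of 18 alternatives.

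Cell cycle genes were higher at both sites. Of 26 listed genes 9 were tested, with medians of 2.30 in the primary tumor and 2.34 in the metastasis. In the primary tumor 6 were called higher and in the metastasis 5, against 2.63% and 1.78% of all genes. Mki67, a marker of dividing cells, stood at 93.5 and 79.6 CPM in primary tumors, 97.1, 0, 96.3 and 70.7 CPM in metastases and 8.51, 9.31, 18.1 and 31.2 CPM in lungs (2.08 ± 0.46 (adjusted p = 0.0125) and 1.93 ± 0.47 (adjusted p = 0.0341)). In metastasis replicate 4 it was at 0, so that library overlapped with the lung. Cenpf, a kinetochore protein gene, lay at 48.5 and 32.6 CPM, 61.1, 20.0, 57.8 and 56.6 CPM and 0, 0, 0 and 3.29 CPM. With 2 UMIs in all lungs, its pooled ratio was 19.1 (95% counting interval 5.25 to 158) in the primary tumor (adjusted p = 0.00257) and 31.8 (95% counting interval 8.38 to 269) in the metastasis (adjusted p = 0.00332). Without cells holding markers of another type, where 1 metastasis library and 2 lung libraries with 0 Cenpf UMIs remained, neither call held (adjusted p = 0.0596 and adjusted p = 0.153), which does not show a smaller difference.

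The cell cycle counts rested on few libraries. In the primary tumor they fell from 6 to 1 without replicate 1-3, where Mki67, Top2a, Birc5, Ube2c and Stmn1 lost their calls, and to 3 without replicate 4. In the metastasis they fell from 5 to 2 without replicate 1-3, to 1 without replicate 5, to 2 without lung replicate 5 and to 0 without cells holding markers of another type. They were 7 in the primary tumor and 7 in the metastasis without metastasis replicate 4 and lung replicate 6, and 4 in the metastasis without its replicate 6. The 26 genes summed to 199.5 CPM in metastasis replicate 4, the lowest of the 10 libraries, 863 to 1848 CPM in the other metastases, 849 and 1189.9 CPM in primary tumors and 237 to 516 CPM in lungs. The highest sum, 1848 CPM, was in metastasis replicate 5, where the 9 melanoma markers also summed highest, at 2551 CPM. Of its 18 members, 17 held UMIs of at least 2 melanoma markers. The part of melanoma RNA in the cell cycle values was not tested beyond leaving out mixed cells. Within run 2, which holds metastasis replicate 4, 2 of the 9 tested genes were above lung and 3 below, with a median of 0, whereas 9 of 9 and 8 of 9 were above lung in runs 1 and 3.

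Lipid-associated macrophage genes gave 2 higher of 15 tested in the primary tumor and 6 in the metastasis (medians 0.46 and 1.25), and the difference between the sites was not called for any of them. Among all genes 2.63% were called higher in the primary tumor and 1.78% in the metastasis. Besides Spp1, the galectin gene Lgals1 was higher at both sites (2.23 ± 0.47 and 2.32 ± 0.42). Trem2, a lipid-sensing receptor, stood at 410.0, 439, 683 and 410.3 CPM in metastases, 280.4 and 250.0 CPM in primary tumors and 255, 196, 224 and 129.8 CPM in lungs, and was called in the metastasis (1.25 ± 0.32 (adjusted p = 0.0418)), a call lost in 13 of 24 alternatives. Lgals3, Gpnmb and Syngr1 were called there as well, with calls lost in 13 of 24, 13 of 23 and 9 of 21 alternatives. The list's count in the metastasis was 2 without metastasis replicate 4 and lung replicate 6, 3 without metastasis replicate 6 and 2 without replicate 1-3 or 5. It was also 2 without lung replicate 6, 3 without lung replicate 1 and 3 without either primary tumor library. Apoe, the apolipoprotein of tissue macrophages, was among the highest genes, at 10078 and 11423 CPM, 11330.3, 20531, 18396 and 13564 CPM and 8592, 12476, 8781 and 4582 CPM, and was not called (0.32 ± 0.38 (adjusted p = 0.668) and 0.81 ± 0.32 (adjusted p = 0.168)). In the cholesterol and lipid handling list 2 of 14 genes were higher at each site, the scavenger receptor gene Msr1 (1.43 ± 0.30 and 1.60 ± 0.28) and Apoc2, an activator of lipoprotein lipase (2.09 ± 0.51 and 2.42 ± 0.49). Both genes were called at both sites without metastasis replicate 4 and lung replicate 6 as well, and without metastasis replicate 6. In the primary tumor both calls were lost without either primary tumor library, that of Apoc2 also without lung replicate 5, and in the metastasis that of Apoc2 was lost without replicate 1-3.

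Few genes that mark resident and identity states passed the test. Higher calls against lung made up 2.63% of all genes in the primary tumor and 1.78% in the metastasis. In the resident macrophage list, 1 of 14 tested genes was higher at each site, the folate receptor gene Folr2 in the primary tumor (2.28 ± 0.61 (adjusted p = 0.0343)) and Fcna, a ficolin, in the metastasis (2.84 ± 0.72 (adjusted p = 0.0412)). Both calls were lost without metastasis replicate 4 and lung replicate 6, that of Folr2 also with DESeq2, and they were lost in 8 of 23 and 8 of 18 alternatives. With those 2 libraries left out, Mrc1, Cd163 and Selenop of the list were called lower in the metastasis. Without metastasis replicate 6 the counts stayed at 1 and 1. The median of the list was 0.16 in the primary tumor and -0.99 in the metastasis, where 10 of the 14 lay below 0. Between the sites the median was 1.30, with 11 of 14 higher in the primary tumor, 0 called and 7 without overlap, against 10.2% of all genes without overlap. The mannose receptor gene Mrc1 stood at 788 and 678 CPM in primary tumors, 132 to 439 CPM in metastases and 425, 638, 998 and 407 CPM in lungs and was not called against lung (0.27 ± 0.42 and -1.22 ± 0.38). Cx3cr1, the fractalkine receptor, was at 240.4 and 285 CPM in primary tumors, 421, 479, 529 and 401 CPM in metastases and 910.2, 619, 605 and 762 CPM in lungs. Neither site overlapped with the lung, and the difference passed the test in the primary tumor (-1.45 ± 0.36 (adjusted p = 0.0230)), lost in 4 of 23 alternatives. Itgam, the integrin CD11b, stood at 423 and 381 CPM, 518, 978, 452 and 448 CPM and 76.6, 196, 272 and 225 CPM and was called in the metastasis (1.52 ± 0.35 (adjusted p = 0.0242)), a call lost in 5 of 24 alternatives. Of 7 classical monocyte markers, 2 were higher in the primary tumor (F10 and Vcan) and 1 in the metastasis (Vcan). The median of the list was 0.36 in the primary tumor, with 5 of 7 above 0, and -0.64 in the metastasis, with 5 of 7 below 0, and the defining marker Ly6c2 lay at 43.6 and 76.0 CPM, 53.9, 20.0, 0 and 0 CPM and 0, 27.9, 30.2 and 126 CPM.

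Single genes of the complement, iron and lysosome lists were called. Of 11 tested complement genes, 3 were higher in the primary tumor, namely factor B, Cfb, at 79.4 and 84.5 CPM against 0, 0, 0 and 8.21 CPM in lungs (4.28 ± 0.65 (adjusted p = 0.00127)), C4b (2.95 ± 0.59 (adjusted p = 0.00855)) and properdin, Cfp (2.01 ± 0.49 (adjusted p = 0.0232)), and 1 in the metastasis, Itgam, which is also a complement receptor chain. These counts were 3 and 3 without metastasis replicate 4 and lung replicate 6, without metastasis replicate 6 they were 3 and 1, and without primary tumor replicate 1-3 the former was 1. Heme oxygenase, Hmox1, was the only called gene of 11 in the iron list, at 446 and 187 CPM in primary tumors, 241, 159.6, 529 and 1038 CPM in metastases and 93.6, 65.2, 48.4 and 57.5 CPM in lungs (2.31 ± 0.57 (adjusted p = 0.0243) and 2.95 ± 0.53 (adjusted p = 0.00786)). Neither site overlapped with the lung. Of 25 lysosomal genes 1 was called higher in the primary tumor and 2 in the metastasis, against 2.63% and 1.78% of all genes. The protease gene Ctsl was higher at both sites (1.85 ± 0.37 and 1.78 ± 0.33) and the acid phosphatase gene Acp5 in the metastasis. Hmox1, Ctsl and Acp5 were called at the same sites without metastasis replicate 4 and lung replicate 6 and without metastasis replicate 6. The primary tumor calls of Hmox1 and Ctsl were both lost without primary tumor replicate 1-3 and with thinned libraries, that of Hmox1 also without lung replicate 5 or 6, and the Acp5 call without metastasis replicate 1-3. The interleukin 4 receptor gene Il4ra was higher at both sites (1.38 ± 0.30 (adjusted p = 0.0125) and 1.14 ± 0.30 (adjusted p = 0.0472)), the latter called in 5 of 23 alternatives. Il4ra was the only call at either site among 18 tested cytokine receptor genes. Most of that list went the other way, with 13 and 15 genes below 0 and medians of -0.76 and -0.52.

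Other lists gave few calls or none. Interferon-stimulated genes gave 0 of 13, with medians of 0.62 in the primary tumor and -0.30 in the metastasis, transcription factors 0 of 23 and inflammatory cytokines 0 of 9 at both sites. Egr1, an immediate early gene, was lower in the metastasis (-2.42 ± 0.58 (adjusted p = 0.0326)), the only one of 24 in its list, a call lost in 10 of 24 alternatives. Of 17 phagocytosis genes, Msr1 was higher at both sites and Axl, a receptor for dying cells, was lower in the primary tumor (-1.35 ± 0.34 (adjusted p = 0.0269)), with medians of -0.13 and -0.30. Of 13 checkpoint and inhibitory genes, Arg1 was higher at both sites and the inhibitory receptor gene Siglece lower in the primary tumor (-1.28 ± 0.34 (adjusted p = 0.0364)), with medians of -0.23 and -0.16. Over all genes 2.63% were called higher and 2.93% lower in the primary tumor, and 1.78% and 1.36% in the metastasis. The Axl call was lost in 4 of 23 alternatives and that of Siglece in 12 of 22, DESeq2, the replicate block and the fit without metastasis replicate 4 and lung replicate 6 among the latter.

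Several genes of no list were lower than in lung. H2-M2, a nonclassical MHC class I gene, stood at 561, 279, 278 and 189 CPM in lungs, 11.2 and 7.64 CPM in primary tumors and 39.6, 0, 67.4 and 37.7 CPM in metastases, with a difference of -5.14 ± 0.55 (adjusted p = 0.000145) in the primary tumor and adjusted p = 0.00332 in the metastasis. Hpgd, which inactivates prostaglandins, was at 621, 535, 405 and 309 CPM in lungs and 40.1 and 52.1 CPM in primary tumors (-3.32 ± 0.47 (adjusted p = 0.00108)), and its call held in all 23 alternatives. Mgl2, a galactose-type lectin also known as CD301b, was at 698, 624, 677 and 302 CPM in lungs and 77.3, 20.0, 202 and 33.0 CPM in metastases (-2.80 ± 0.50 (adjusted p = 0.00770)), held in all 24. None of these 3 overlapped between the tissues compared, which the rule for naming genes outside the lists required. The activating receptor gene Lilra5 was lower in the primary tumor (-3.75 ± 0.46 (adjusted p = 0.000266)) and the epoxide hydrolase gene Ephx1 at both sites (-3.18 ± 0.56 and -3.05 ± 0.63). Wfdc2, an airway epithelial gene, was at 17.0, 4.66, 229.8 and 534 CPM in lungs and 0 in the primary tumor, at least 752-fold lower (adjusted p = 0.00174). Without primary tumor replicate 4, the deeper library, the bound was 93.1-fold and the call was lost (adjusted p = 0.0544), without lung replicate 6 the bound was 316-fold, and with thinned libraries the call was lost as well (adjusted p = 0.191). All 8 tested epithelial markers were lower in the primary tumor and 3 in the metastasis, falling to 3 and 0 without metastasis replicate 4 and lung replicate 6 and to 6 and 0 without metastasis replicate 6. The 12 listed markers stood at 1.41 and 0.496 CPM in sum in the primary tumor against 23.3 to 8919 CPM in lungs, and their part in the Wfdc2 value was not tested.

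Among genes of no list that were higher, Ptgds, a prostaglandin D synthase gene, was at 28.8 and 29.0 CPM in primary tumors, 30.6, 79.8, 173 and 208 CPM in metastases and 0 in all lungs, at least 10.7-fold and at least 33.2-fold higher (adjusted p = 0.0188 and adjusted p = 0.00424), or at least 4.795-fold and 14.9-fold without lung replicate 6 and 20.3-fold in the metastasis without its replicate 6. Ltc4s, which makes leukotriene C4, was higher in the metastasis (3.07 ± 0.59 (adjusted p = 0.00865)), a call lost with at least 20 members a library. So was AA467197 (3.20 ± 0.48 (adjusted p = 0.00332)), which stood at 0.93 and lost its call without cells holding markers of another type (adjusted p = 0.561). The secreted processing enzyme gene Cpe had a pooled ratio to lung of 31.7 (95% counting interval 8.74 to 262) in the primary tumor and 27.6 (95% counting interval 7.22 to 235) in the metastasis. The melanoma markers Dct and Syt4 were called at both sites too. Without cells holding markers of another type, melanoma included, both Ptgds calls were lost (adjusted p = 0.430 and adjusted p = 0.227) with 1 metastasis and 2 lung libraries left, and Cpe did not pass the filter on low counts. The call of Ptgds in the primary tumor and both calls of Cpe were also lost without metastasis replicate 4 and lung replicate 6. The Cpe calls were lost in 4 of 20 and 5 of 20 alternatives, and the Ptgds call in the primary tumor in 5 of 21.

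No gene passed the test between macrophages of the primary tumor and of the metastasis in the reported fit, in which the 2 libraries of replicate 1-3 share mice 2 and 3. The call changed with the design: 11 genes were called with the replicate number as a block, 5 with the run as a block, 19 with each mouse of replicates 1-3 as a library and 12 by DESeq2. Only 2 primary tumor libraries held members, and 489 genes (10.2%) had no overlap between the tissues, against 30.9% for primary tumor and lung and 8.76% for metastasis and lung. Mrc1 differed by 1.49 ± 0.43 (adjusted p = 0.392), with a 95% interval of 0.59 to 2.38 and no overlap. The class II gene H2-Aa differed by 0.95 ± 0.47 (adjusted p = 1.00), interval -0.03 to 1.94, and Cd74 by 0.92 ± 0.52 (adjusted p = 1.00), interval -0.16 to 2.01. For Arg1 the difference was -1.42 ± 0.69 (adjusted p = 1.00), interval -2.90 to 0.06, with metastasis libraries on both sides of the primary tumor. Ldha differed by 0.29 ± 0.38 (adjusted p = 1.00), interval -0.51 to 1.09. The intervals include differences of more than 1 on the log2 scale, so a p that misses the threshold does not show that the tissues are alike.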

How the data were processed

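Host cells of MT-ret melanoma primary tumors, of lung metastases and of unchallenged lungs were profiled as single cells. The authors deposited UMI counts per gene and cell, made with Cell Ranger 6.1.1 and handled in Seurat 3.2.2 on mouse build GRCm38 (mm10), per the submitters' processing notes. Log-normalised values, which were not used, and a cell annotation were deposited as well. The annotation names the library, the mouse and a run, without saying what kind of run it is. Before deposit the authors removed cells with high ribosomal or mitochondrial shares and cells with very few or very many detected genes, which also limits how shallow or deep a member can be. The sources used here do not say how doublets were treated, and no doublet caller was run. Of 24 library names, 5 held the same cells as another and were counted once. Lung replicate 1 of the labels was matched to the only lung name left, which gives replicate 2. Of the 5 names of sorted melanoma cells, 1 held the cells of metastasis replicate 6, which were used as that replicate, and the other 4 were not used.

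Members were found by the rule given in the report and their counts were summed per library. Genes were filtered with filterByExpr and fitted with edgeR 4.0.16 (TMM, glmQLFit, glmQLFTest) in R 4.3.3. SEs are the fold change divided by the square root of the F value, and intervals use the degrees of freedom of the fit. Libraries with at least 10 members held 50120 to 10073022 UMIs. On counts simulated for these libraries with known changes, 16% to 22% of 2-fold and 80% to 83% of 4-fold changes were called. The simulation gave every gene the same spread between libraries and took the levels from the UMIs of all libraries pooled. The rates belong to that setting and do not hold for genes that vary more between libraries. Named genes were the 10 largest called changes in each direction with no overlap and at least 20 CPM in the higher tissue, called genes of the functional lists, and up to 4 uncalled genes a list by highest CPM. For shares of cells each cell was thinned to 1000 UMIs, and shallower cells were left out. Members, lists and named-gene rules were chosen with earlier results of these data known.

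Alternatives were DESeq2 1.42.0, other scalings and filters, other cell rules, other sets of libraries, a replicate block and leaving out each library. Treating each mouse of replicates 1-3 as a library, the run as a block, and leaving out metastasis replicate 4 with lung replicate 6 were chosen after seeing the data.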

Additional observations from a re-analysis of the deposited data

Results flagged for a closer look

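In groups of 4 libraries, single libraries stood apart from the rest in 9 of 49 groups checked by Dixon's ratio. Chance flags about 1 group in 20, a rate that does not hold where all other libraries are at 0, since any UMI is then flagged. This was so for Cenpf in lung replicate 6 and Cxcl13 in metastasis replicate 1-3. Thbs1 was at 1349 CPM in metastasis replicate 6, against 200 to 329 CPM in the other metastases, and at 73.9 CPM in lung replicate 6, against 8.51 to 18.1 CPM in the other lungs. Mif was at 99.8 CPM in metastasis replicate 4, against 545 to 613 CPM in the others. Cenpf was at 20.0 CPM in metastasis replicate 4, against 56.6 to 61.1 CPM, and at 3.29 CPM in lung replicate 6, against 0. Cxcl13 was at 1974 CPM in lung replicate 1, against 14.0 to 325 CPM, and at 1.80 CPM in metastasis replicate 1-3, against 0 in the others. The 7 neutrophil markers summed to 2906 CPM in members of metastasis replicate 1-3, against 48.1 to 137 CPM. The 10 alveolar macrophage markers, part of which the rule used, summed to 1416 CPM in lung replicate 6, against 0 to 218 CPM.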

How the results depend on the processing

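Counts of called genes are given as primary tumor against metastasis, primary tumor against lung and metastasis against lung, with 0, 266 and 150 in the reported fit. With at least 20 members a library the latter 2 were 537 and 66, and with libraries thinned to the smallest total 18 and 38. With no filter on low counts the 3 counts were 86, 1598 and 657, with the share of higher calls against lung falling to 28.2% and 30.7% from 47.4% and 56.7%. Fits of only the 2 tissues compared gave 5, 550 and 86, and each mouse of replicates 1-3 as a library gave 19, 547 and 237. With the stricter cell rule primary tumor against metastasis and metastasis against lung gave 12 and 235, and without cells holding markers of another type 12 and 50, there with 1 metastasis and 2 lung libraries. DESeq2 called 12 genes in the first comparison. Without metastasis replicate 4 and lung replicate 6 it gave 4, and the run as a block gave 5 and, for primary tumor against lung, 164. Replicates 5 and 6 alone gave 258 for metastasis against lung and could not be fitted for the primary tumor, which held 0 members there. Requiring 1 member a library left the same libraries as requiring 10.

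Leaving out 1 library at a time gave 0 to 3, 41 to 321 and 63 to 176 genes. Primary tumor against lung fell to 41 without primary tumor replicate 4, 57 without replicate 1-3, 126 without lung replicate 5 and 165 without lung replicate 6. Metastasis against lung fell to 63, 69 and 82 without metastasis replicates 5, 6 and 1-3, and to 73 without lung replicate 5.

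With the replicate number as a block the first comparison gave 11 genes. Deviations of same-numbered libraries correlated at -0.0311 to 0.111. With 2 primary tumor libraries the deviations from their mean mirror each other, so this check cannot decide on pairs there. The reported fit did not use the numbers as pairs, although the 2 libraries of replicate 1-3 share mice 2 and 3. Of named genes, Lpl turned its direction in the primary tumor against lung, at 1.31 without cells holding markers of another type. Few members in most metastasis and lung libraries, and 2 primary tumor libraries, limit the precision.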
